A study of Mus musculus with 2 samples.

Results

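Pecam1, Cdh5, Emcn, Plvap, Egfl7, Esam, Cd34, Icam2 and Ecscr are genes for surface, junction and secreted proteins that are widely used to mark endothelium. These 9 genes were taken by name from the 22401 features counted in 2 single-cell libraries from E11.5 embryonic mouse hearts (midgestation), and all 9 were present. The Control library came from embryos with the genotype Hand2fx/+ and R26RmTmG/wt and no Cre allele. The H2CKO library came from embryos with Nfatc1Cre/wt, Hand2fx/fx and R26RmTmG/wt, so that Hand2, a transcription factor gene, is deleted where Nfatc1-driven Cre has acted, which includes the endocardium. The comparison asks how endothelial and other heart cells differ when Hand2 is lost in that lineage. Both genotypes carried the mTmG reporter, which switches from Tomato to GFP in cells in which Cre has acted and in their progeny. The number of embryos pooled in each library is not in the labels. With 1 library per genotype no difference has a replicate check, and all intervals given are 95% intervals for counting error only.

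Endothelial cells form the inner lining of all vessels and of the heart, where they are called endocardium. Neighbouring cells are held together by adherens and tight junctions, and their luminal surface carries sialomucins and receptors that meet blood cells. In the heart at midgestation, the endocardium lines the chambers, gives rise to cushion mesenchyme and contributes cells to coronary vessels. Cdh5 encodes VE-cadherin, the cadherin of endothelial adherens junctions. Pecam1, Esam and Icam2 encode adhesion molecules of the immunoglobulin superfamily that lie at cell contacts. Emcn and Cd34 encode sialomucins, and Cd34 is also known from blood progenitors and some mesenchymal cells. Plvap encodes the protein of the diaphragms that span fenestrae and caveolae. Ecscr encodes a small membrane protein of endothelial cells, and Egfl7 a secreted protein with EGF-like domains that binds the matrix around vessels, so Egfl7 is not itself a surface receptor.

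RefSeq promoter windows (GRCm38.p6) were at hand for 3 of the 9 genes, Cd34, Egfl7 and Emcn, with 3 alternative starts for Egfl7. Factors of the ETS family, which include many regulators of endothelial genes, bind sites with a GGAA core, so the windows were searched for AGGAAG on both strands. The stretches below are read 5′ to 3′ on the gene's strand and are the longest part of each window outside annotated exons. Each match (AGGAAG or its complement CTTCCT) is in capitals. Both Egfl7 stretches lie within the annotated Egfl7 gene, downstream of its first annotated base. They are shown because Emcn and Cd34 had the largest folds between the endothelial clusters in Control, and because the log2 ratios of Cd34 and Egfl7 between genotypes had opposite signs in those clusters.
Cd34, chr1:194938571-194938818: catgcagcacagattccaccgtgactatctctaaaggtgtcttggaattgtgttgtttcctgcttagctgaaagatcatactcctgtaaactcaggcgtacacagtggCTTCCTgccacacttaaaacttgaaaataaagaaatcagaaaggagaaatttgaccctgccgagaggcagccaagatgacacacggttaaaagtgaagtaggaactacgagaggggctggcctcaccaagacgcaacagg
Egfl7, first start, chr2:26580833-26581055: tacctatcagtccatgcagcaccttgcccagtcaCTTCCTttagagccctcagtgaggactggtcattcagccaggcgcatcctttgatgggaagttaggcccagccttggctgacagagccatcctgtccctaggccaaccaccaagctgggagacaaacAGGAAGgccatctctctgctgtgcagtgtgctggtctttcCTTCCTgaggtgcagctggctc
Egfl7, second start, chr2:26583615-26583863: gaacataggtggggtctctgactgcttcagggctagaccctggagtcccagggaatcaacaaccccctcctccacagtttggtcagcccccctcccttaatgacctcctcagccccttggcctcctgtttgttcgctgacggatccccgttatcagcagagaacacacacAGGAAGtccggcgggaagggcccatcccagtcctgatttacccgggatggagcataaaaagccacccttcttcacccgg
Emcn, chr3:137340828-137341066: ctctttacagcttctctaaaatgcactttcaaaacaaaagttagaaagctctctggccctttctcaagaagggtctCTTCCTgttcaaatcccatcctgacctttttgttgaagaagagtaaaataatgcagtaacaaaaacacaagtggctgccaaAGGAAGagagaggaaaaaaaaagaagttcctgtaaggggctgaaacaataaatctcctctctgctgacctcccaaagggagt
Within windows of 250 bases, Cd34 had 1 match, Emcn 2, and the 3 Egfl7 windows 3, 1 and 0. Among 32851 RefSeq windows of that length, 29.5% held at least 1 match. None of these 5 windows held AGATAA, the motif searched for GATA factors, which 9.99% of all windows held. The E-box motif CANNTG (N is any base) was also searched. It had 2, 0 and 1 matches in the 3 Egfl7 windows, 1 in Emcn and 0 in Cd34, and 66.2% of all windows held it. A match is a string of letters and says nothing here of binding, and Pecam1, Cdh5, Plvap, Esam, Icam2 and Ecscr are named only.

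In the GENCODE vM21 annotation of GRCm38, the genes lie on 7 chromosomes. Cd34 lies at chr1:194938819-194961279 (plus strand), Egfl7 at chr2:26580014-26593120 (plus) and Emcn at chr3:137341067-137432185 (plus). Plvap lies at chr8:71497765-71511752 (minus) and Cdh5 at chr8:104101625-104144511 (plus). Esam lies at chr9:37528078-37538319 (plus), Icam2 at chr11:106377656-106388075 (minus), Pecam1 at chr11:106654217-106750628 (minus) and Ecscr at chr18:35713086-35722356 (minus). Pecam1 and Emcn have the longest spans, 96412 and 91119 bases, and Ecscr the shortest, 9271 bases.

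The Control matrix held 14114 barcodes and 195825720 UMIs (unique molecular identifiers, 1 per captured transcript), and the H2CKO matrix 13885 barcodes and 201477256 UMIs. After filtering, 8793 and 11534 cells were kept. The matrices shared 57 barcodes, 28 of them among kept cells. Endothelial cells were found without the 9 genes, which were left out of the clustering. Clusters were named from 12 other endothelial genes, among them Tie1, Kdr and Sox18. Of 21 clusters, 2 were endothelial-like, and each had a UMI of all 12 markers in at least 10% of its cells. The Tm4sf1-rich cluster, named here for a leading gene, held 115 Control and 484 H2CKO cells, with medians of 13645 and 10795 UMIs. The Klf2-rich cluster held 258 and 266 cells, with medians of 12212.5 and 9062 UMIs. Klf2, which blood flow is known to induce, was at 2089 CPM (counts per 1000000 UMIs of the same cells) in its Control cells and 531 CPM in the Tm4sf1-rich Control cells. The leading genes of the Klf2-rich cluster included 1 endothelial marker, Flt1, and 1 neuronal marker, Stmn2. Emcn, Plvap, Icam2 and Cdh5 were among the 10 leading genes of the Tm4sf1-rich cluster although they had no part in defining it.

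Different clusters held most endothelial cells of each library. The Klf2-rich cluster took 69.2% (64.2 to 73.8) of 373 Control endothelial cells and 35.5% (32.0 to 39.0) of 750 H2CKO endothelial cells. Values are therefore given within each cluster first. Hand2 was at 172 CPM in Control and 13.2 CPM in H2CKO in the Tm4sf1-rich cluster, and at 255 and 6.83 CPM in the Klf2-rich cluster. GFP went from 13.7 to 956 CPM and from 17.0 to 1630 CPM. Both genes moved as the genotype labels say. Other features of the libraries moved too. Median genes per cell were 3970 and 3039.5 in the Tm4sf1-rich and 3788.5 and 2888.5 in the Klf2-rich cluster. The summed level of 7 erythroid markers, none of them at 0, rose from 21726 to 39095 CPM in the Tm4sf1-rich and from 14407 to 47809 CPM in the Klf2-rich cluster. The summed level of 9 mesenchymal markers fell from 762 to 180 CPM (1 marker at 0 in Control) and from 1151 to 448 CPM (none at 0). The summed level of 9 white blood cell markers went from 7.88 to 18.9 CPM (5 and 1 at 0) and from 9.80 to 105 CPM (5 and 0 at 0). The part of these shifts in the differences below was not tested, beyond the recalculations named.

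All 9 genes were far higher in the 2 endothelial clusters than in cardiomyocyte-, epicardial- or erythroid-like cells, but they differed in how closely they kept to endothelium. Cdh5 and Emcn were nearly restricted to it. Cd34, Egfl7, Icam2 and Ecscr were also counted in other cells. Of all Cdh5 UMIs in kept cells, 95.1% (94.2 to 95.9) in Control and 96.0% (95.2 to 96.7) in H2CKO came from the endothelial clusters. For Emcn the shares were 92.3% and 96.1%, for Plvap 87.1% and 91.6%, and for Esam 86.8% and 93.0%. For Pecam1 they were 78.6% and 87.6%. The shares were lower for Ecscr, at 66.3% and 82.3%, for Icam2, at 62.6% and 84.4%, and for Egfl7, at 52.0% and 72.6%. They were lowest for Cd34, at 44.2% (42.7 to 45.6) and 69.5% (67.9 to 71.0). Every gene had the higher share in H2CKO, where endothelial cells made up 6.50% of kept cells against 4.24% in Control and mesenchymal-like cells 9.30% against 18.1%.

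**Figure D1:**
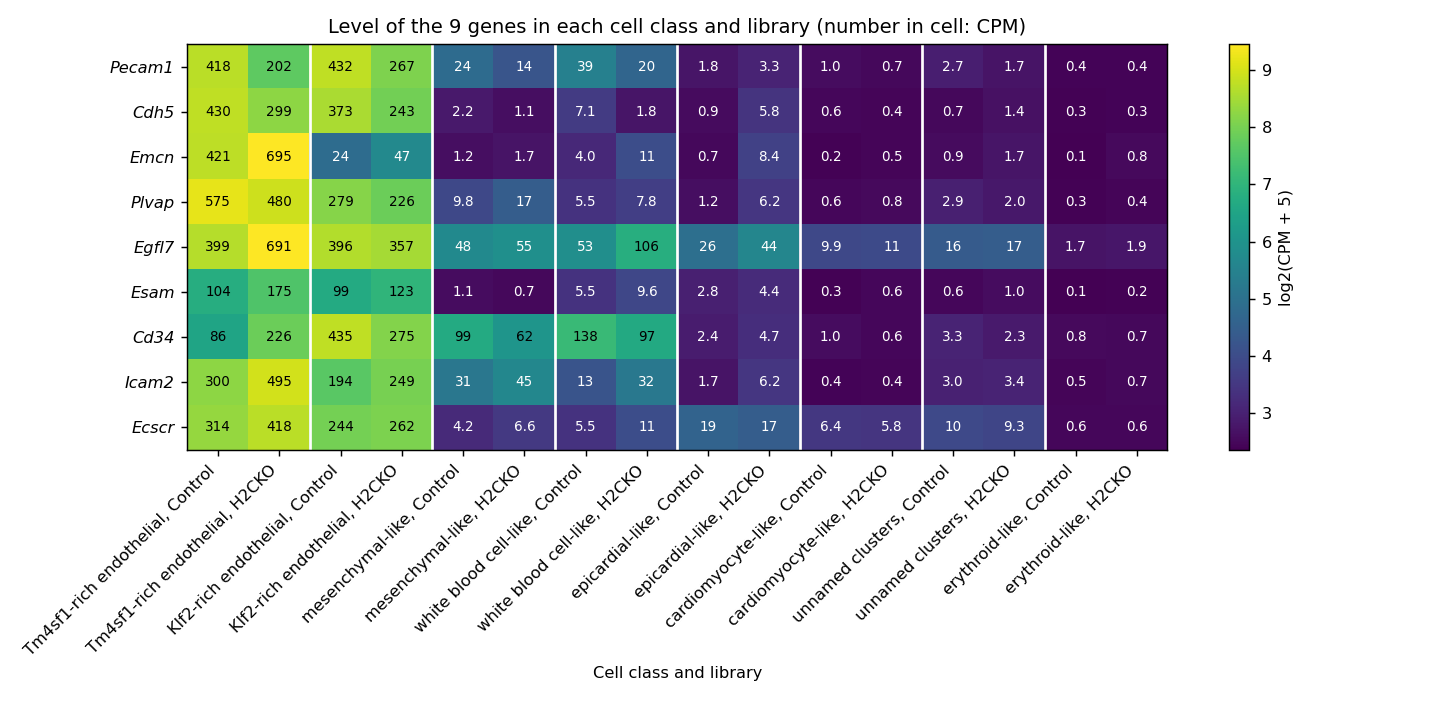
Level of each gene (rows) in each cell class and library (columns), with the CPM printed in each field and the colour giving log2(CPM + 5). The 4 endothelial columns at the left stand above the other classes in every row, except Cd34 in the Tm4sf1-rich Control cells (86.1 CPM), which is below its level in mesenchymal-like (98.6 CPM) and white blood cell-like (138 CPM) Control cells.

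Erythroid-like cells, the most abundant class, are taken here as the background level. All 9 genes were at 0.12 to 1.86 CPM there, and a UMI of Pecam1 was found in 0.702% of 2708 Control and 0.503% of 4970 H2CKO cells (medians 18335.5 and 13221.5 UMIs). Thinned to 5000 UMIs, none of the 9 genes was found in more than 0.914% of erythroid-like cells of either library. In the 2 endothelial clusters together, Pecam1 was found in 94.4% and 87.1% of cells (medians 12777 and 10280 UMIs). Emcn was at 0.12 CPM in erythroid-like cells in Control and 0.79 CPM in H2CKO, and the part of such background in low levels elsewhere was not tested. Pooled endothelial Cdh5 was 1243-fold (764 to 2178) its erythroid level in Control and 869-fold (573 to 1390) in H2CKO. Egfl7 had the smallest such contrast, 235-fold (190 to 295) and 311-fold (260 to 373). Cardiomyocyte-like cells were also close to background for 7 genes, at 0.23 to 1.00 CPM. The exceptions were Egfl7, at 9.86 CPM in Control and 10.6 CPM in H2CKO, and Ecscr, at 6.36 and 5.83 CPM. Those 2 genes also led in epicardial-like cells, where Egfl7 was at 25.6 and 44.1 CPM and Ecscr at 19.4 and 16.7 CPM. In epicardial-like cells without a UMI of Tie1, Kdr or Sox18, Ecscr was at 19.9 CPM (17.3 to 22.9) and 10.9 CPM (7.16 to 15.8), and was found in 25.0% and 12.2% of cells.

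Mesenchymal-like cells carried a partial set of the genes. Cd34 was highest in this class, at 98.6 CPM in Control and 61.5 CPM in H2CKO, followed by Egfl7 (47.6 and 54.9 CPM), Icam2 (31.1 and 44.5 CPM), Pecam1 (23.7 and 13.6 CPM) and Plvap (9.79 and 16.8 CPM). Cdh5 was at 2.19 and 1.14 CPM, Emcn at 1.16 and 1.67 CPM and Esam at 1.07 and 0.70 CPM. In Control, Cd34 in the mesenchymal-like class (98.6 CPM) was above its level in the Tm4sf1-rich endothelial cluster (86.1 CPM, 73.4 to 100.3), within that interval. The pattern remained among cells with no UMI of Tie1, Kdr or Sox18. In 1455 such Control cells Cd34 was at 96.4 CPM (92.1 to 101), Icam2 at 29.8 CPM and Pecam1 at 21.1 CPM. In 1006 such H2CKO cells they were at 61.3, 43.5 and 13.0 CPM. Cdh5, Emcn and Esam were at 0.50 to 1.32 CPM in the same cells.

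The 2 mesenchymal-like clusters differed for Cd34. In the cluster led by Inhba, Tgfbi and Meox1 it was at 129 CPM in Control and 83.7 CPM in H2CKO, and in the cluster led by Car3, Twist1 and Hapln1 at 73.5 and 44.3 CPM. White blood cell-like cells (85 and 103 cells), a cluster that also held UMIs of the platelet gene Pf4 (2158 and 513 CPM), had Cd34 at 138 and 96.6 CPM. Egfl7 was at 53.0 and 106 CPM, Pecam1 at 38.8 and 20.4 CPM, and Cdh5 at 7.12 and 1.80 CPM. In white blood cell-like cells without a UMI of Tie1, Kdr or Sox18, Cdh5 had 1 UMI in each library, and Cd34 was at 162 CPM (138 to 189) and 92.3 CPM (77.4 to 109).

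Single cells were compared after each had been thinned to 5000 UMIs, which left out 21 of 373 Control and 57 of 750 H2CKO endothelial cells. A Tm4sf1-rich cell then had a UMI of 6.34 of the 9 genes on average in Control and 7.08 in H2CKO. In Klf2-rich cells the means were 5.49 and 5.20. The means were 0.90 and 0.84 for mesenchymal-like cells, 0.11 and 0.10 for cardiomyocyte-like cells, and 0.03 in both libraries for erythroid-like cells. At least 5 of the 9 genes were found in 89.0% and 96.9% of Tm4sf1-rich cells and in 74.1% and 70.9% of Klf2-rich cells, against 0.19% and 0.10% of mesenchymal-like cells. Without thinning, the means were 7.72 and 8.23 in the Tm4sf1-rich and 7.05 and 6.63 in the Klf2-rich cluster.

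**Figure D2:**
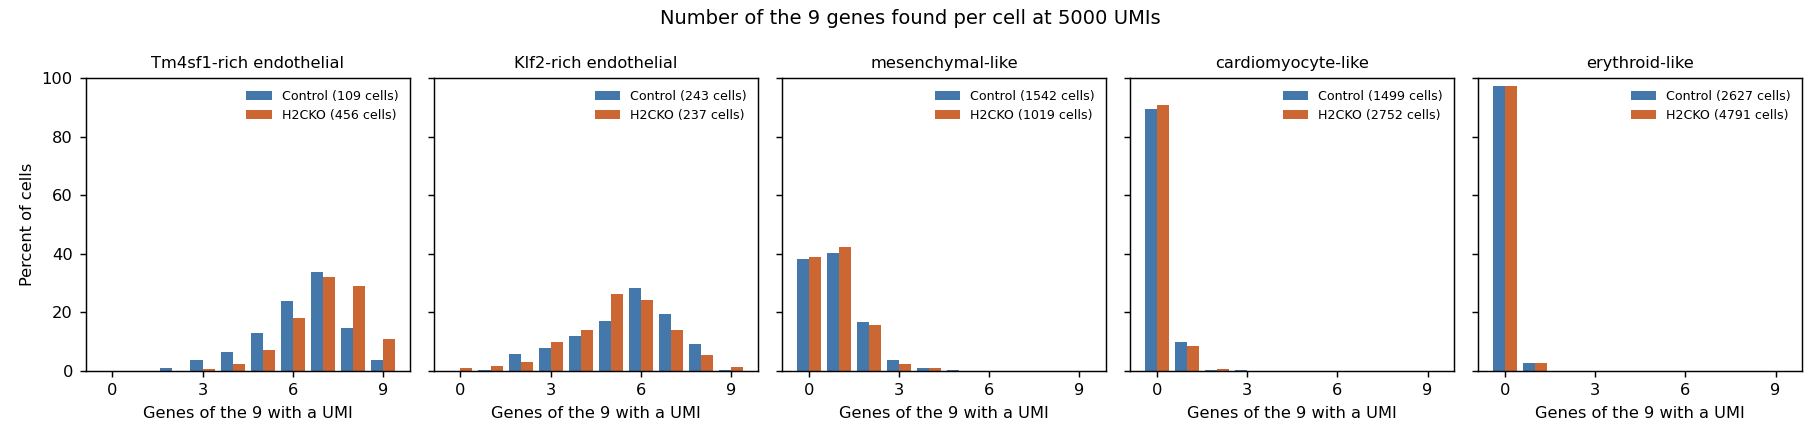
Percent of cells (vertical axis) with a UMI of 0 to 9 of the genes (horizontal axis) after thinning each cell to 5000 UMIs, by cell class and library. The endothelial clusters centre on 5 to 7 genes, mesenchymal-like cells on 0 to 1, and erythroid- and cardiomyocyte-like cells on 0.

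Within the endothelium the sialomucins Emcn and Cd34 marked opposite clusters. In Control, Emcn was at 421 CPM (392 to 451) in the Tm4sf1-rich cells and at 24.3 CPM (19.8 to 29.4) in the Klf2-rich cells, 17.3-fold apart (14.1 to 21.5). In H2CKO the levels were 695 CPM (675 to 716) and 47.2 CPM (40.0 to 55.3), 14.7-fold apart (12.5 to 17.4). Thinned to 5000 UMIs, Emcn was found in 73.4% of Tm4sf1-rich and 9.88% of Klf2-rich Control cells, and in 93.6% and 11.8% of H2CKO cells. Cd34 went the other way. In Control it was at 86.1 CPM (73.4 to 100.3) in the Tm4sf1-rich and 435 CPM (415 to 455) in the Klf2-rich cells, 5.05-fold higher in the latter (4.30 to 5.96). In H2CKO the levels were 226 CPM (214 to 238) and 275 CPM (257 to 294), only 1.22-fold apart (1.12 to 1.33). Cd34 thus separated the clusters much more in Control than in H2CKO, whereas Emcn separated them in both.

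In Control the other genes separated the clusters less than Emcn and Cd34, whereas in H2CKO Cd34 had the smallest fold between clusters of the 9. Plvap was 2.06-fold higher in the Tm4sf1-rich cells in Control (575 and 279 CPM) and 2.13-fold in H2CKO (480 and 226 CPM, 95% interval of the fold 1.96 to 2.31). Icam2 was 1.54-fold higher there in Control (299.8 and 194 CPM) and 1.99-fold in H2CKO (495 and 249 CPM). Ecscr was 1.29-fold and 1.59-fold higher there. Egfl7 did not separate them in Control (399 and 396 CPM, 1.01-fold, 0.92 to 1.10) and was 1.94-fold higher in the Tm4sf1-rich cells in H2CKO (691 and 357 CPM, 1.82 to 2.07). Esam was 1.05-fold (0.88 to 1.25) and 1.43-fold (1.27 to 1.61) higher there. Cdh5 and Pecam1 were close to even in both libraries. Cdh5 was 1.15-fold and 1.23-fold higher in the Tm4sf1-rich cells, and Pecam1 was 1.03-fold (0.95 to 1.12) and 1.32-fold (1.21 to 1.44) higher in the Klf2-rich cells.

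**Figure D3:**
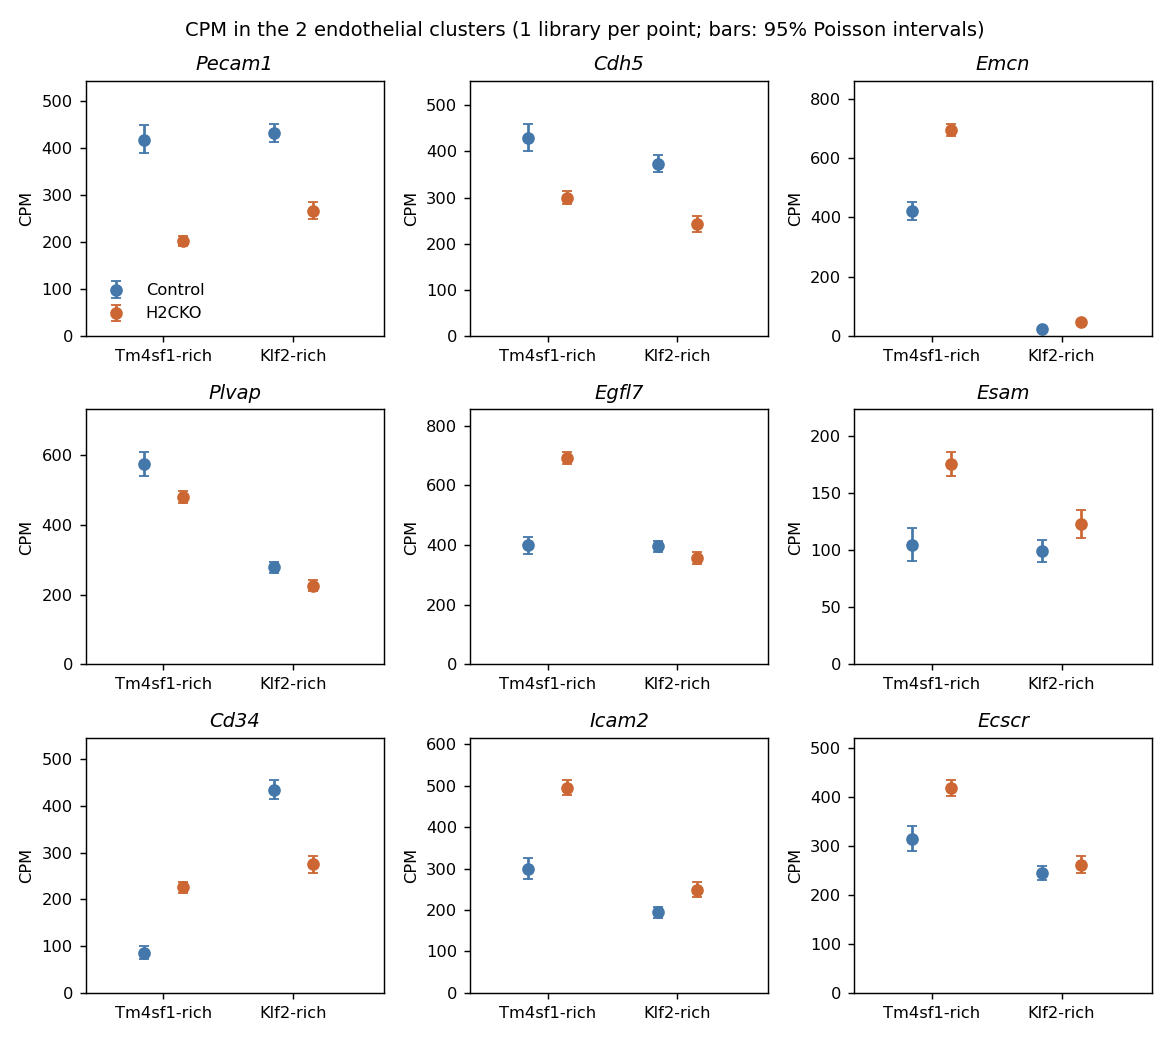
CPM of each gene (1 panel per gene, vertical axis from 0) in the Tm4sf1-rich and Klf2-rich endothelial clusters, Control in blue and H2CKO in orange, with exact Poisson 95% intervals. Pecam1 and Cdh5 are lower in H2CKO in both clusters, Emcn is high in 1 cluster only, and the Cd34 points move towards each other in H2CKO.

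Between genotypes, Pecam1 and Cdh5 were lower in H2CKO in both clusters, Emcn, Esam and Icam2 were higher in both, and Cd34 had ratios of opposite sign in the 2 clusters. Egfl7 was higher in the Tm4sf1-rich cluster, and its sign in the Klf2-rich cluster depended on the scaling and on the sub-cluster. Of these, only Pecam1 and Cd34 passed 2-fold, both in the Tm4sf1-rich cluster. A gene was counted as past 2-fold at a log2 ratio of CPM plus 5 of at least 1 in size, which understates ratios of low values, strongly so below about 5 CPM. The intervals beside the log2 ratios are those of the ratio of counts. In the Tm4sf1-rich cluster 2 of the 9 passed 2-fold, Pecam1 lower and Cd34 higher, where 8.62% of the 6299 genes tested were 2-fold lower and 1.49% were 2-fold higher. Within the Klf2-rich cluster none passed, where 3.36% of 6598 genes were 2-fold lower and 0.667% were 2-fold higher. The median log2 ratio of the 9 genes was 0.71 in the Tm4sf1-rich and -0.15 in the Klf2-rich cluster, against -0.26 and -0.23 over all genes tested.

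Pecam1 had the largest decrease of the 9. In the Tm4sf1-rich cluster it was at 418 CPM (390 to 449) in Control and 202 CPM (192 to 214) in H2CKO, giving a log2 ratio of -1.03 (-1.18 to -0.92). In the Klf2-rich cluster it was at 432 CPM (413 to 453) and 267 CPM (249.6 to 286), giving a log2 ratio of -0.68 (-0.81 to -0.58). The 2 Control levels overlapped and both H2CKO levels were below them. Cdh5 went from 430.0 CPM (401 to 461) to 299 CPM (286 to 313) in the Tm4sf1-rich cluster, giving a log2 ratio of -0.52 (-0.64 to -0.40). It went from 373 CPM (355 to 392) to 243 CPM (226 to 260.3) in the Klf2-rich cluster, giving a log2 ratio of -0.61 (-0.75 to -0.50). None of its 4 intervals overlapped, and the order was the same in both libraries. The Pecam1 call in the Tm4sf1-rich cluster was close to the limit and was lost with doublets kept (-0.93), without haemoglobin and mitochondrial UMIs (-0.98) and with H2CKO cells with a GFP UMI only (-0.99). Relative to the median gene tested, the decreases were smaller, at -0.77 and -0.45 for Pecam1 and -0.26 and -0.38 for Cdh5. Pecam1, a gene with a long span, also had a smaller decrease, at -0.76 and -0.47, once the trend of the log2 ratio with gene span was taken out. That trend had a Spearman rho of -0.45 over 6296 genes in the Tm4sf1-rich and -0.48 over 6593 genes in the Klf2-rich cluster.

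The other adhesion molecules of the immunoglobulin superfamily, Esam and Icam2, had higher values in H2CKO in both clusters, without passing 2-fold in either. Esam was at 104 CPM (90.0 to 119) in Control and 175 CPM (165 to 186) in H2CKO in the Tm4sf1-rich cluster, giving a log2 ratio of 0.72 (0.53 to 0.98). In Klf2-rich cells it was at 98.9 CPM (89.7 to 109) and 123 CPM (111 to 135), giving a log2 ratio of 0.30 (0.11 to 0.51). Icam2, a ligand of leukocyte integrins, was at 299.8 CPM (276 to 325) and 495 CPM (477 to 512) in the Tm4sf1-rich cluster, giving a log2 ratio of 0.71 (0.59 to 0.85). Within the Klf2-rich cluster it was at 194 CPM (181 to 208) and 249 CPM (232 to 267), giving a log2 ratio of 0.35 (0.22 to 0.50). For both genes the Control and H2CKO intervals did not overlap in either cluster, and the Control levels of Esam did not differ between clusters beyond their intervals.

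Of the sialomucins, Emcn had log2 ratios of 0.72 (0.62 to 0.84) in the Tm4sf1-rich and 0.83 (0.59 to 1.33) in the Klf2-rich cluster, from the levels given above. The Klf2-rich value rests on 104 Control and 152 H2CKO UMIs, and after thinning the log2 ratio there was 0.26. Cd34 had a log2 ratio of 1.34 (1.16 to 1.63) in the Tm4sf1-rich cluster, from 164 UMIs in Control and 1422 in H2CKO. In the Klf2-rich cluster its log2 ratio was -0.65 (-0.78 to -0.54), from 1863 and 887 UMIs. Thinned to 5000 UMIs, Cd34 was found in 32.1% of Tm4sf1-rich Control cells and 62.1% of H2CKO cells, and in 82.7% and 65.8% of Klf2-rich cells. No other gene of the 9 had so large a change in one direction in one cluster and the opposite in the other, and the difference between clusters was not tested.

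Plvap, the diaphragm protein gene, went from 575 to 480 CPM in the Tm4sf1-rich cluster, giving a log2 ratio of -0.26 (-0.36 to -0.16). It went from 279 to 226 CPM in the Klf2-rich cluster, giving a log2 ratio of -0.30 (-0.44 to -0.17). Relative to the median gene they were -0.00 and -0.07. Egfl7 went from 399 CPM (371 to 428) to 691 CPM (671 to 712) in the Tm4sf1-rich cluster, giving a log2 ratio of 0.78 (0.68 to 0.91). In Klf2-rich cells it went from 396 CPM (377 to 415) to 357 CPM (336 to 378), giving a log2 ratio of -0.15 (-0.26 to -0.04), which became 0.08 relative to the median gene. Ecscr went from 314 to 418 CPM, giving a log2 ratio of 0.41 (0.28 to 0.54), in the Tm4sf1-rich cluster. Within the Klf2-rich cluster its levels of 244 and 262 CPM did not differ beyond counting error, with a log2 ratio of 0.10 (-0.03 to 0.23).

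**Figure D4:**
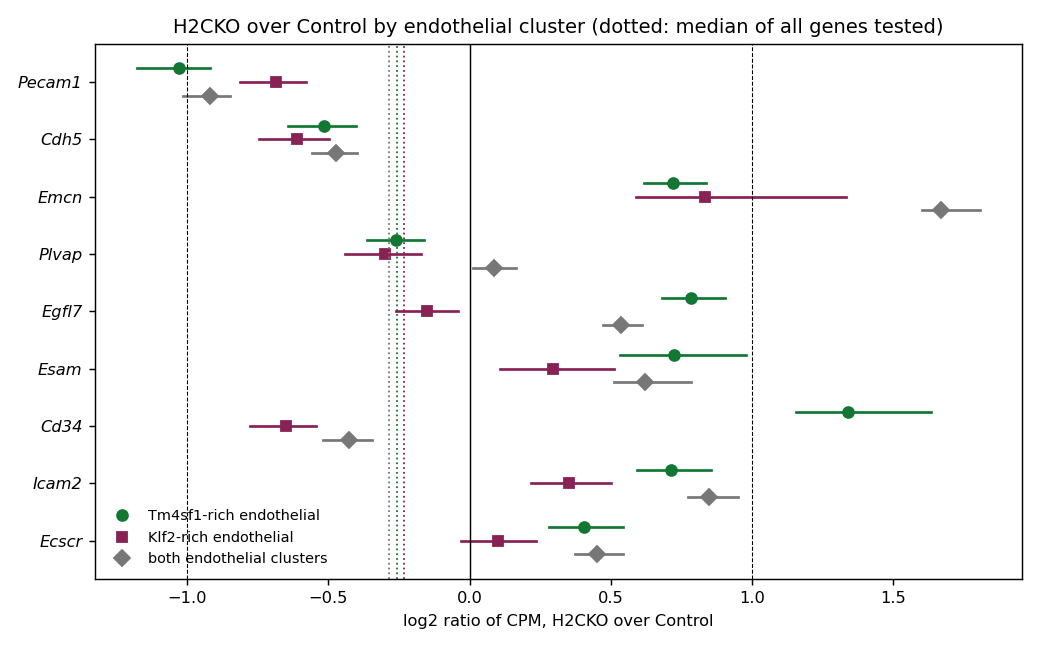
Log2 ratio of H2CKO over Control (horizontal axis) for each gene in the Tm4sf1-rich cluster (green circles), the Klf2-rich cluster (purple squares) and both clusters together (grey diamonds), with 95% intervals of the ratio of counts. Dashed lines mark 2-fold and dotted lines the median of all genes tested (-0.26, -0.23 and -0.28). Pecam1 and Cdh5 lie to the left in all 3, and the Cd34 circle (1.34) and square (-0.65) lie on opposite sides of 0.

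Pooling the 2 clusters, which the libraries hold in different proportions, changed what some genes showed. Over all endothelial cells Emcn was at 146 CPM (137 to 156) in Control and 476 CPM (462 to 490.0) in H2CKO, giving a log2 ratio of 1.67 (1.60 to 1.81), about 2 times the log2 ratio within either cluster. Emcn was the 1 gene of the 9 past 2-fold in the pooled cells, where 0.854% of 6554 genes were 2-fold higher and 7.57% 2-fold lower. Cd34 was at 327 and 243 CPM, giving a log2 ratio of -0.43, although it rose in the cluster that holds most H2CKO cells. Plvap was at 370.0 and 394 CPM, giving a log2 ratio of 0.09, although it was lower in both clusters. Cells taken by a UMI of at least 2 of Tie1, Kdr and Sox18, 268 in Control and 547 in H2CKO, gave values close to the pooled clusters. In those cells the log2 ratio was 1.62 for Emcn, -0.45 for Cd34, 0.17 for Plvap, -0.91 for Pecam1 and -0.44 for Cdh5. Of the cells so chosen, 92.9% and 97.3% were in the 2 endothelial clusters.

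The endothelial cells were split further into 6 sub-clusters, again without the 9 genes. Sub-clusters 1 (162 Control and 181 H2CKO cells; leading genes Krt79, Fbln2, Has2 and Sox9) and 4 (58 and 73 cells; Adamts8, Serpinb1a and Nrg1) lay 97.7% and 100% in the Klf2-rich cluster. Sub-clusters 2 (72 and 271 cells; Lbp, Nr2f2, Ly6h and the platelet genes Pf4 and Gp9) and 3 (61 and 140 cells; cell-cycle genes such as Top2a and Cenpf) lay mostly in the Tm4sf1-rich cluster. Sub-cluster 5 (10 and 47 cells) drew 30.0% of its UMIs from globin genes, against 0.47% to 1.58% in the others. Sub-cluster 6 (10 and 38 cells; Kcne3, Fabp4, Igfbp3 and Cldn5) was the only one with a name from the markers, a vascular subset. Sub-clusters 5 and 6 have too few Control cells to carry a comparison, and their values are given for completeness. The cells of 1 sub-cluster also differed between libraries in subset markers. In sub-cluster 2 the endocardial marker Npr3 was at 416 CPM in Control and 91.7 CPM in H2CKO, and the vascular marker Cldn5 at 8.36 and 128 CPM. The part of such differences in the ratios below was not tested.

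Pecam1 was lower in H2CKO in every sub-cluster, with log2 ratios from -1.26 in sub-cluster 5 to -0.29 in sub-cluster 6, where the interval (-0.80 to 0.23) included 0. Its levels went from 479 to 311 CPM in sub-cluster 1, from 418 to 215 CPM in sub-cluster 2, from 432 to 206 CPM in sub-cluster 3 and from 397 to 254 CPM in sub-cluster 4. Cdh5 was likewise lower in all 6, from -0.69 in sub-cluster 4 to -0.22 in sub-cluster 5, with an interval that included 0 in sub-cluster 5 only. In sub-clusters 1 to 4 both genes were lower with intervals that excluded 0, so their decreases were not limited to 1 subset of endothelial cells. Sub-clusters 5 and 6 have too few Control cells to add to this. The median over all genes tested is not given per sub-cluster, and was -0.26 in the Tm4sf1-rich and -0.23 in the Klf2-rich cluster.

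Emcn was higher in H2CKO in all 6 sub-clusters, and had larger log2 ratios in sub-clusters 2 and 3 than in the Tm4sf1-rich cluster, where they mostly lay. It went from 307 to 779 CPM in sub-cluster 2, giving a log2 ratio of 1.33 (1.15 to 1.54), and from 394 to 758 CPM in sub-cluster 3, giving a log2 ratio of 0.93 (0.79 to 1.10). In sub-cluster 1 it went from 25.6 to 80.7 CPM, giving a log2 ratio of 1.49 (1.21 to 2.12), although the share of cells with a UMI was 19.1% and 22.1%, so that the added UMIs lay in few cells. Its H2CKO cells had 139 Emcn UMIs and those of sub-cluster 4 had 52, against 152 in the whole Klf2-rich cluster. Part of the 139 thus came from the few cells of sub-cluster 1 in the Tm4sf1-rich cluster, so the 1.49 is not a value within the Klf2-rich cluster. Icam2 was higher in all 6 as well, most in sub-cluster 2, where it went from 252 to 518 CPM (1.03, 0.83 to 1.26). Esam was higher in all 6, with intervals that included 0 in sub-clusters 4 and 6. Egfl7 was higher in 5 of them and lower in sub-cluster 4, where it went from 451 to 336 CPM (-0.42, -0.61 to -0.25).

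Cd34 was higher in H2CKO in sub-clusters 2 and 3, which lie mostly in the Tm4sf1-rich cluster, and lower in sub-clusters 1 and 4 of the Klf2-rich cluster. It went from 88.4 to 250.03 CPM in sub-cluster 2, giving a log2 ratio of 1.45 (1.15 to 1.87), and from 134 to 203 CPM in sub-cluster 3, giving a log2 ratio of 0.58 (0.33 to 0.88). It went from 488 to 308 CPM in sub-cluster 1, giving a log2 ratio of -0.66 (-0.82 to -0.51), and from 391 to 268 CPM in sub-cluster 4, giving a log2 ratio of -0.54 (-0.75 to -0.35). In the vascular sub-cluster 6, which lies wholly in the Tm4sf1-rich cluster, the levels were 291 and 275 CPM, with no difference beyond counting error (-0.08, -0.54 to 0.39). In sub-cluster 5 they were 191 and 156 CPM (-0.29, -0.72 to 0.15). Sub-cluster 6 had the highest level of Egfl7 (657 and 806 CPM), Icam2 (388 and 625 CPM) and Esam (194 and 276 CPM) of the 6 in each library. Plvap was lowest in sub-cluster 6 in Control, at 129 CPM, and at 304 CPM there in H2CKO. Without sub-clusters 5 and 6 the Cd34 log2 ratio in the Tm4sf1-rich cluster was 1.77.

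**Figure D5:**
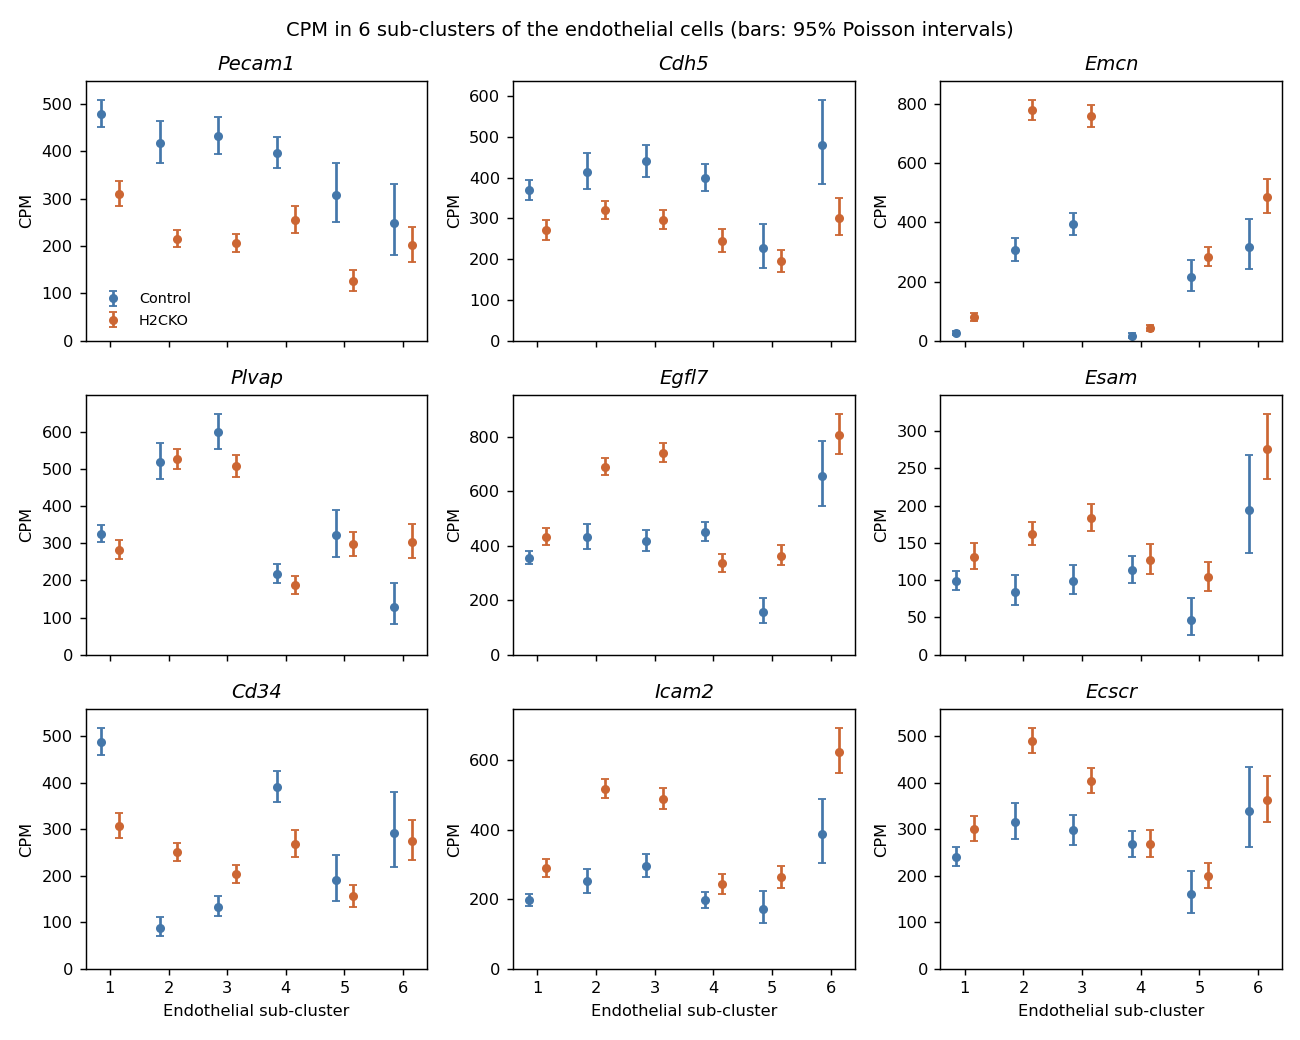
CPM of each gene (1 panel per gene, vertical axis from 0) in the 6 endothelial sub-clusters, Control in blue and H2CKO in orange, with exact Poisson 95% intervals. Pecam1 and Cdh5 are lower in H2CKO in all 6, Emcn is lowest in sub-clusters 1 and 4, and Cd34 is higher in H2CKO in sub-clusters 2 and 3 and lower in 1 and 4.

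Within the H2CKO library, cells with and without a GFP UMI were compared, which holds the library constant. In the Tm4sf1-rich cluster 293 cells had a GFP UMI and 191 did not. The 9 genes differed by -0.14 (Emcn) to 0.20 (Esam) on the log2 scale between them. Cd34 was at 233 CPM with and 213 CPM without a GFP UMI, and Pecam1 at 209 and 191 CPM, so neither group had the Control level. Hand2 was at 9.49 and 20.1 CPM. In the Klf2-rich cluster 236 cells had a GFP UMI and 30 did not. There Cd34 was at 258 CPM with and 522 CPM without, giving a log2 ratio of -1.01 (-1.31 to -0.72), and Egfl7 at 348 and 471 CPM, giving a log2 ratio of -0.43 (-0.73 to -0.13). Emcn was at 49.9 CPM with (150 UMIs) and 9.33 CPM without (2 UMIs), with an interval of 0.54 to 5.48 for the log2 ratio of counts. Klf2-rich cells without a GFP UMI were shallower, with a median of 6506 UMIs against 9878.5. The part of depth in these contrasts was not tested. The intervals of the other 6 genes included 0. A cell without a GFP UMI need not be unrecombined, and 23 of 115 Tm4sf1-rich Control cells, which carry no Cre allele, also had a GFP UMI.

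In mesenchymal-like H2CKO cells, 404 with a GFP UMI and 669 without, the pattern was mixed. Cd34 was at 45.5 CPM with and 71.2 CPM without, giving a log2 ratio of -0.59 (-0.89 to -0.41 as a ratio of counts). Plvap was at 21.2 and 14.1 CPM, and Icam2 at 50.4 and 41.0 CPM. Pecam1, at 13.8 and 13.5 CPM, did not differ beyond counting error. Hand2 was at 21.2 and 62.9 CPM in the same cells.

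Outside the endothelium few of the 9 genes were high enough to be tested between genotypes. In mesenchymal-like cells 4 were tested, with log2 ratios of -0.63 for Pecam1, -0.64 for Cd34, 0.19 for Egfl7 and 0.46 for Icam2. None of these 4 passed 2-fold, where 3.57% of 6522 genes were 2-fold lower and 0.46% 2-fold higher. The same 4 were tested in white blood cell-like cells, with log2 ratios of -0.79 for Pecam1, -0.49 for Cd34 and 0.94 for Egfl7. Icam2 was there at 13.5 and 31.8 CPM, from 17 and 53 UMIs, just under the 2-fold limit. None passed, where 9.81% of 5932 genes were 2-fold lower and 1.21% 2-fold higher. In epicardial-like cells Egfl7 alone was tested, with a log2 ratio of 0.68, where 4.32% of 6337 genes were 2-fold lower and 1.47% 2-fold higher. Among epicardial-like cells without a UMI of Tie1, Kdr or Sox18 it was at 25.3 CPM (22.3 to 28.6) and 35.0 CPM (28.1 to 43.2), a smaller contrast. In mesenchymal-like and white blood cell-like cells Pecam1 and Cd34 were thus lower and Egfl7 and Icam2 higher in H2CKO, as in the Klf2-rich cluster for all but Egfl7. Among white blood cell-like cells without a UMI of Tie1, Kdr or Sox18 the increases were smaller. Egfl7 was there at 62.3 CPM (47.8 to 79.9) and 84.8 CPM (70.6 to 101), and Icam2 at 17.1 CPM (9.95 to 27.4) and 22.4 CPM (15.4 to 31.5). For both genes these intervals overlapped. A GFP UMI was found in 37.7% of mesenchymal-like and 20.4% (13.1 to 29.5) of white blood cell-like H2CKO cells. In Control, which carries no Cre allele, the shares were 17.3% and 17.6% (10.2 to 27.4). Whether the ratios differ between classes was not tested.

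Most of the 36 pairs of genes were found in the same endothelial cell about as often as the product of their separate shares. The ratio of the share with both to that product ranged from 0.65 to 1.22 in Control and from 0.95 to 1.11 in H2CKO. After thinning, Cd34 and Emcn were found together in 12.8% of Control endothelial cells, against 19.8% from the product of their shares, a ratio of 0.65. In H2CKO they were found together in 40.0% against 41.6%, a ratio of 0.96. Emcn and Plvap had the highest ratio in Control, 1.22, and Emcn and Egfl7 had 1.18. Pecam1 and Cdh5 were found together in 70.7% of Control and 47.9% of H2CKO cells, with ratios of 1.01 in both. These ratios describe cells that differ in cluster, and have no test.

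The partners of these genes were described through 5 lists. Their counts stand against 1.49% of all genes tested that were 2-fold higher and 8.62% that were 2-fold lower in the Tm4sf1-rich cluster, and 0.667% and 3.36% in the Klf2-rich cluster. With so few genes in a list, 1 or 2 genes lower is near that background in the Tm4sf1-rich cluster. Of 19 junction partners, 16 were tested in the Tm4sf1-rich cluster, where 2 passed 2-fold upwards and 2 downwards, with a median of -0.43 against -0.26 over all genes. Cldn5, a claudin of endothelial tight junctions, went from 25.7 to 129 CPM (2.12), and Ocln, for occludin, from 1.58 to 20.3 CPM (1.95, from 3 UMIs in Control). Cgnl1, for the junction protein paracingulin, went from 365 to 112 CPM (-1.66), and Tjp1, for the scaffold ZO-1, from 253 to 111 CPM (-1.16). In Klf2-rich cells 17 were tested, and 2 passed downwards with none upwards, with a median of -0.54 against -0.23. Among them Cdh2, for N-cadherin, went from 31.3 to 5.59 CPM (-1.78). Counting direction alone, 12 of the 16 partners were below 0 in the Tm4sf1-rich and 15 of the 17 in the Klf2-rich cluster, where 4336 of 6299 and 4507 of 6598 genes tested were below 0. Cldn5 was a leading gene of the vascular sub-cluster 6, at 199 CPM there in Control and 355 CPM in H2CKO, and was also higher in H2CKO within sub-clusters 2 (8.36 and 128 CPM) and 3 (7.24 and 85.7 CPM).

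Of 20 other endothelial surface glycoproteins, 13 were tested in the Tm4sf1-rich cluster, with 2 upwards and none downwards and a median of 0.03, where 1.49% of all genes were higher and the median was -0.26. Clec14a, a C-type lectin receptor of endothelium, went from 42.5 to 240 CPM (2.36), and Icam1 from 21.5 to 52.1 CPM (1.11). Within the Klf2-rich cluster none of 14 passed, although Clec14a went from 105 to 212 CPM (0.98). Of 9 caveola genes 8 were tested, and Cavin3 (148 to 583 CPM, 1.94) and Cav1 (27.8 to 100.1 CPM, 1.68) passed upwards in the Tm4sf1-rich cluster, with a median of 0.48 against -0.26 over all genes. None of the 8 passed in the Klf2-rich cluster, with a median of 0.05. Plvap, whose diaphragms span caveolae, did not follow them.

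Among 12 regulators of junctions in the Rap1 and CCM pathways, Heg1, a membrane receptor of the CCM complex, passed downwards in both clusters. It went from 44.6 to 17.3 CPM (-1.15) in the Tm4sf1-rich cluster, where 10 were tested, and from 288 to 106 CPM (-1.39) in the Klf2-rich cluster, where 11 were tested. No other gene of that list passed, and the medians were -0.31 and -0.42, where 8.62% and 3.36% of all genes were 2-fold lower and the medians were -0.26 and -0.23. All 18 endothelial transcription factors were tested in the Tm4sf1-rich cluster. Sox17 (18.9 to 93.9 CPM, 2.05) and Lmo2 (49.4 to 122 CPM, 1.22) passed upwards, and Etv2 (31.5 to 3.49 CPM, -2.10), Foxc1 (110.3 to 28.1 CPM, -1.80) and Foxc2 (115 to 49.2 CPM, -1.15) downwards, with a median of -0.15, where 1.49% of all genes were 2-fold higher and 8.62% lower. None of 17 passed in the Klf2-rich cluster, with a median of -0.28. Genes past 2-fold in 1 cluster and not in the other were not tested for a difference between the clusters.

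Over 41 profiles, each a cluster in 1 library with at least 50 cells, the mean log2(CPM + 5) of the 9 genes was followed most closely by Flt1 (Pearson r 0.97), Plxnd1 (0.97), Cd93 (0.97), Abi3 (0.96), Gngt2 (0.96), Tie1 (0.96), Tm4sf1 (0.95), Scarf1 (0.95), Fgd5 (0.95) and Sox18 (0.95). Flt1, Gngt2, Tie1 and Sox18 were among the markers that named the clusters. The profiles share 2 libraries and are dominated by the contrast of endothelium with the rest, so r is given as a description. Against the mean of the other 8, Plvap had the highest r (0.98) and Cd34 (0.84) and Emcn (0.87) the lowest. The nearest single genes were Gngt2 for Pecam1 (0.96), Rasip1 for Cdh5 (0.98), Fam167b for Emcn (0.97), Cd93 for Plvap (0.98) and Hdac7 for Egfl7 (0.95). They were Exoc3l4 for Esam (0.98), Klk8 for Cd34 (0.96), Eng for Icam2 (0.96) and Car8 for Ecscr (0.94).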

How the data were processed

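Each library came with a matrix of raw UMI counts as deposited, with barcodes as columns and Ensembl gene IDs as lines, per the file headers. The submitters' processing notes name Cell Ranger 5.0.1, Seurat 4 and GRCm38.p6, alike for both samples. Deposited embedding coordinates were not used. Of 22401 features, 22285 matched a symbol.

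The cell filter was a minimum of 500 genes and a maximum of 10% mitochondrial UMIs. Scrublet (scanpy 1.11.5) marked 1048 Control doublets; in H2CKO it marked 0, so the 607 cells with the top 5% of scores were removed. Counts were scaled to 10000, and 2000 variable genes without the 9 members, Hand2, reporters, haemoglobin, mitochondrial and sex-linked genes gave 30 components. Each cell was joined to 15 neighbours per library, and Leiden clustering (leidenalg 0.10.2, resolution 1) gave 21 clusters, named from 13 marker lists; 5 stayed unnamed. A name needed a median log2 fold of at least 0.25 and 3 markers in 10% of cells. The Klf2-rich cluster had been foreseen as an unnamed second endothelial cluster, and here met the naming rule with 1 own and 1 neuronal marker among its leading genes.

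UMIs were summed per class and library (CPM). Genes with at least 20 CPM and 20 UMIs in the higher library were tested at a log2 ratio of CPM plus 5 of at least 1. Intervals are exact Poisson, Clopper-Pearson or exact conditional (scipy 1.17.1), at 95%. With 1 library per group no p-value was computed. The calculation was tested on simulated data. One list gene past 2-fold is not reported here. Named genes are the 9 members, list genes past 2-fold, Hand2, the reporters and the nearest genes by correlation; leading genes of clusters and Klf2, Npr3, Stmn2 and Pf4 were named after their values were seen. The members and lists were chosen with earlier results of these data known. Alternatives to cell filter, clustering, gate, depth, scaling and pseudocount are in the closing section.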

Additional observations from a re-analysis of the deposited data

Results flagged for a closer look

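For 2 of the 9 genes the H2CKO-over-Control ratio had opposite signs in the 2 endothelial clusters, with both 95% counting intervals excluding 0. Egfl7 had a log2 ratio of 0.78 in the Tm4sf1-rich and -0.15 in the Klf2-rich cluster. The Klf2-rich value of Egfl7 turned to 0.08 relative to the median gene, and it was 0.28 (0.13 to 0.42) in sub-cluster 1, which holds most Klf2-rich cells, and -0.42 in sub-cluster 4. Cd34 had 1.34 in the Tm4sf1-rich and -0.65 in the Klf2-rich cluster. With 1 library per genotype, the difference between clusters was not tested for either gene. Npr3, an endocardial marker, was lower in H2CKO in both clusters, at 484 and 80.7 CPM in the Tm4sf1-rich and 59.9 and 18.3 CPM in the Klf2-rich cluster, and also in epicardial-like cells, at 49.0 and 15.7 CPM. Its part in these values was not tested.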

How the results depend on the processing

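No paired analysis was possible because each genotype has 1 library and the labels give no replicate numbers. Each alternative changed 1 choice, except that the strict cell filter raised the gene minimum and lowered the mitochondrial limit together. In the Tm4sf1-rich cluster the number of genes past 2-fold was 1 in place of 2 with doublets kept, at Leiden resolution 0.5, with cells taken by Tie1, Kdr and Sox18, with the clusters pooled, without haemoglobin and mitochondrial UMIs, with the gene span trend taken out, and with H2CKO cells with a GFP UMI only. That gene was Emcn at resolution 0.5, by the 3 genes and pooled, and Cd34 in the others, so the Pecam1 call was lost in all 7. Centred on the median gene the count stayed at 2, but with Egfl7 (1.04) and Cd34 (1.60) in place of Pecam1 (-0.77) and Cd34. In the Klf2-rich cluster it was 1 in place of 0 with doublets kept, at resolution 0.5, by the 3 genes, pooled, centred on the median gene, and with the span trend taken out; that gene was Emcn. The median ratio of 0.71 in the Tm4sf1-rich cluster became 0.45 at resolution 0.5, 0.46 by the 3 genes, 0.45 pooled and 0.97 centred. The median of -0.15 in the Klf2-rich cluster became -0.31 with the strict cell filter, 0.45 at resolution 0.5, 0.46 by the 3 genes, 0.45 pooled and 0.084 centred. At resolution 0.5 and with the 3 genes the 2 clusters are merged, so these repeat the pooled comparison. The Cd34 ratio of 1.34 in the Tm4sf1-rich cluster reversed to -0.43 at resolution 0.5, -0.45 by the 3 genes and -0.43 pooled.

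Across all alternatives Pecam1 kept its sign, from -1.17 to -0.76 in the Tm4sf1-rich and -0.92 to -0.45 in the Klf2-rich cluster, as did Cdh5 (-0.57 to -0.26 and -0.75 to -0.38), Emcn (0.62 to 1.67 and 0.26 to 1.67), Esam (0.60 to 0.98 and 0.17 to 0.62) and Icam2 (0.59 to 0.97 and 0.21 to 0.93). Egfl7 (-0.31 to 0.57), Ecscr (-0.06 to 0.46) and Plvap (-0.41 to 0.17) changed sign in the Klf2-rich cluster, and Plvap (-0.33 to 0.17) in the Tm4sf1-rich cluster, where Egfl7 (0.53 to 1.04) and Ecscr (0.26 to 0.66) kept it, as did Cd34 (-0.74 to -0.42) in the Klf2-rich cluster. The alternatives without sub-clusters 5 and 6, and with GFP-positive H2CKO cells only, were chosen after seeing the data. Over the single genes, 84 of the values under an alternative lay within the counting interval in the Tm4sf1-rich cluster and 30 outside it, beside the 3 reversed values of Cd34, and 73 and 44 in the Klf2-rich cluster. Intervals cover counting error only, and no alternative stands in for a replicate.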
